A study of Caenorhabditis elegans with 2 samples.

Results

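The genes described here are 40 cell cycle and kinetochore genes of Caenorhabditis elegans, out of 19985 protein-coding genes in the annotation. They are a fixed list of names grouped by role, drawn up with earlier results of these data known, and all 40 names were found in the annotation. No measured value enters the rule, but for that reason their shares are descriptions and not independent support. They comprise 13 cyclins, cyclin-dependent kinases (CDKs) and CDK regulators, 4 genes of the E2F pathway, 9 DNA replication genes, 8 kinetochore genes, and 6 genes of mitotic kinases, their partners and the centrosome. For each gene, peak summits were scored from 500 bp upstream to 100 bp downstream of the annotated start on the gene's strand. Below, a window is this stretch, and a negative distance lies upstream of the start.

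The data are from chromatin immunoprecipitation and sequencing (ChIP-seq) of CEH-82, a homeodomain protein, tagged with enhanced green fluorescent protein (eGFP). There was 1 group of 2 samples, labelled as biological replicates 1 and 2, of whole larvae at the third larval stage (L3), of mixed sex. Both came from strain OP212, with the genotype unc-119(ed3) III; ddEx58, so the unc-119 allele and the transgene were common to all samples. The labels call the construct an insertion, while Ex in a worm allele name stands for an extrachromosomal array; the promoter, the copy number and the cells that made the tagged protein are not given in the sources used here. Whole larvae mix all tissues, so an entry does not say in which cells the protein was recovered. No untagged worms or other condition were analysed here, so no test between conditions could be made, and every comparison below is a description.

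Cyclins bind and activate CDKs, and waves of their activity drive a cell through DNA replication and mitosis. E2F factors with their DP partner act at promoters of replication and division genes, where pocket proteins of the Rb family hold them in check. The kinetochore joins each chromosome to spindle microtubules, and in C. elegans it forms along the whole length of the chromosome, built on the centromeric histone HCP-3. At L3 the germ line proliferates and vulval and other somatic precursors divide, while many cells of the larva no longer cycle.

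A reproducible peak lay in the windows of 3 of the 40 genes (7.5%), namely efl-1 of the E2F pathway, pcn-1 of DNA replication and knl-3 of the kinetochore. Over all protein-coding genes the share was 2.39%. The authors' reproducible list held 748 peaks from both replicates, with signal values from 26.9 to 330 and a median of 38.6. All 3 genes lay above that median. So did many other genes with a peak: 1.33% of all protein-coding genes had one at or above it. The median over all protein-coding genes with a peak was 41.6. No cyclin, CDK, CDK regulator, mitotic kinase or centrosome gene had a reproducible peak in its window.

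Weaker entries reached further into the set, and in the pooled list replication genes had the largest share among these 40 genes. The candidate lists mix peaks with background, so an entry in them is not a call. In the list made from both replicates pooled, 21 of the 40 genes (52.5%) had an entry in the window, against 25.5% of all protein-coding genes. That entry was at or above the median of the pooled list, 7.3, for 18 of the 40 genes (45%), against 16.4% of all genes. By role, a pooled entry was found at 8 of 9 replication genes, 3 of 4 E2F pathway genes, 6 of 8 kinetochore genes, 2 of 6 genes of mitotic kinases and the centrosome, and 2 of 13 cyclins, CDKs and regulators. The last share, 15.4%, was below that of all protein-coding genes, but the direction depended on the scoring. With replicate 2 alone it was 4 of 13 (30.8%, against 19.0%), with any part of an entry in the window 6 of 13 (46.2%, against 33%), and with a window from 1000 bp upstream to 200 bp downstream 8 of 13 (61.5%, against 37.7%). The share stayed below that of all genes with replicate 1 alone (15.4%, against 24.6%). So it did at or above the list median (15.4%, against 16.4%). A window from 250 bp upstream to 50 bp downstream gave 7.69%, against 15.1%. The lead of replication genes depended on the scoring too. It held with that window, with any part of an entry and at or above the list median. With the window from 1000 bp upstream, the kinetochore had 8 of 8 and replication 8 of 9. In replicate 2 the kinetochore had 62.5% and replication 55.6%. In replicate 1 the E2F pathway had 4 of 4 and replication 8 of 9.

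**Figure D1:**
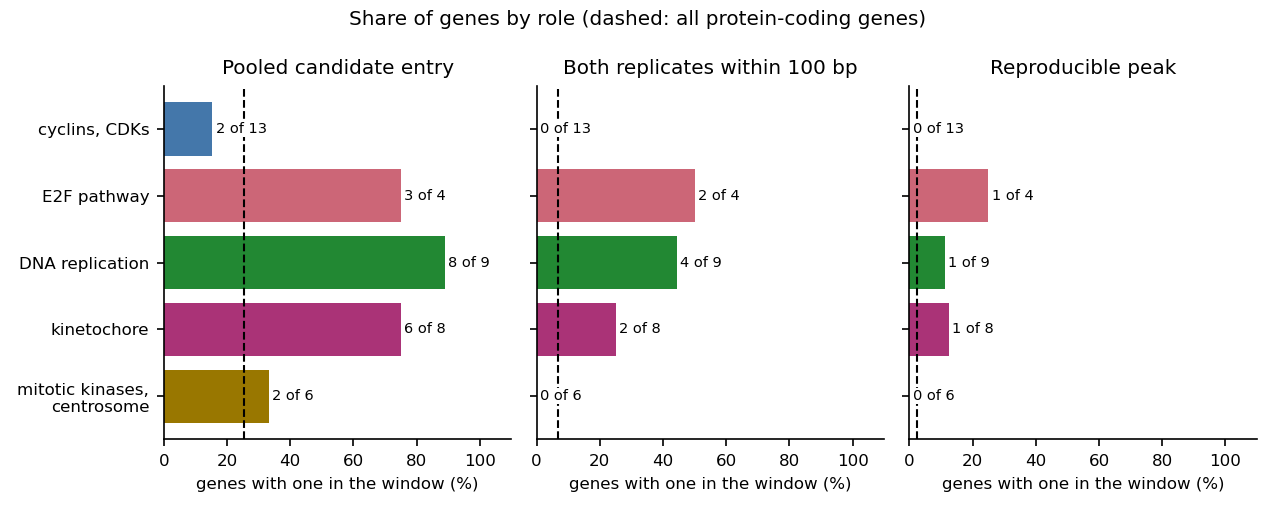
Share of genes in each role group (horizontal axis, percent) with a pooled candidate entry, with summits of both replicates within 100 bp of each other, or with a reproducible peak in the window; labels give the counts and the dashed line is the share of all protein-coding genes. Replication genes reach 8 of 9 for pooled entries, while the 13 cyclins, CDKs and regulators have 2 pooled entries and none of the other kinds.

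Each replicate alone was scored in the same way. The replicate 1 list held an entry in the windows of 20 genes (50%, against 24.6% of all protein-coding genes), and the replicate 2 list in those of 18 (45%, against 19.0%). Both replicates had summits within 100 bp of each other at 8 genes (20%, against 6.64%), which were lin-35, efl-1, mcm-5, mcm-7, pcn-1, cdc-6, knl-3 and mis-12. For 12 genes (30%, against 63.4% of all protein-coding genes) no list held an entry. These were the cyclins cya-1, cyb-2.1, cyb-2.2, cyb-3 and cyd-1, the CDK inhibitor cki-1, the phosphatase cdc-25.1, mcm-6, the centromere protein knl-2, and plk-1, air-1 and zyg-1.

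**Figure D2:**
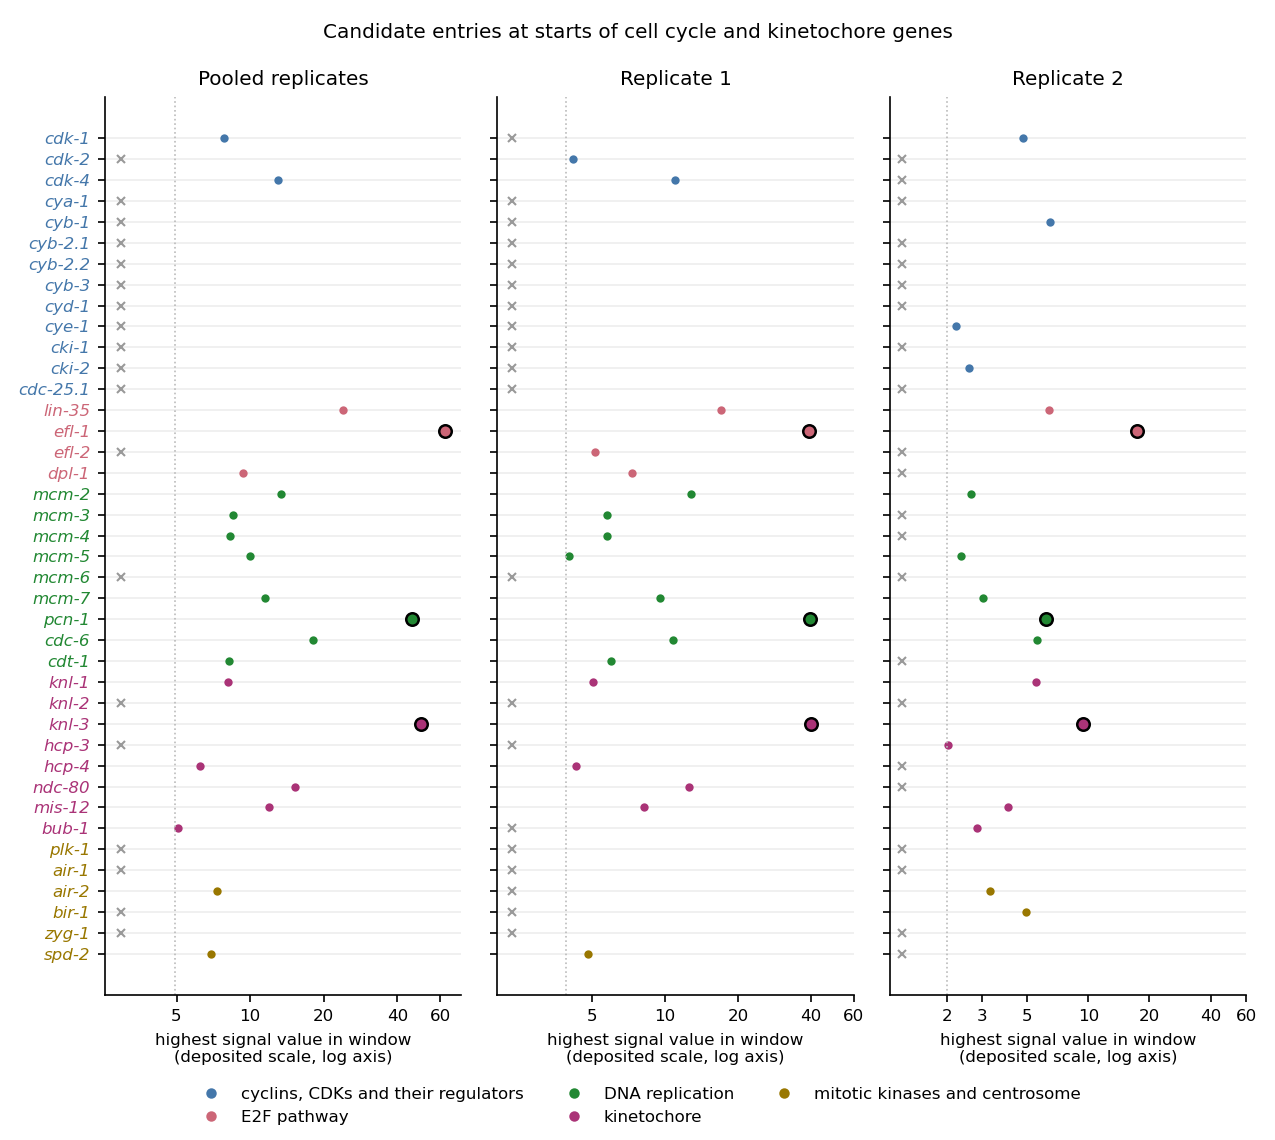
Highest deposited signal value in the window of each of the 40 genes (horizontal log axes) in the pooled, replicate 1 and replicate 2 candidate lists, coloured by role; a grey cross marks no entry, the dotted line the lowest value of the list, and a black ring the 3 genes with a reproducible peak. In the pooled list efl-1 (62.7), knl-3 (49.8) and pcn-1 (45.8) stand to the right of lin-35 (24.0), the highest gene without a reproducible peak.

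Signal values are the authors' own. The reproducible and pooled lists share a scale, since 747 of the 748 reproducible peaks are entries of the pooled list with the same interval and the 3 genes carry the same value in both. The pooled, replicate 1 and replicate 2 lists were made separately, so a value is read here only against other entries of its own list. The pooled and replicate 1 lists held 30000 entries each and that of replicate 2 held 22611. Their lowest values were 4.94, 3.91 and 2, and their medians 7.3, 5.94 and 3.1, in that order. The depth of the libraries is unknown.

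In the E2F pathway all 4 genes had an entry in some list. efl-1 (WBGene00001161), which encodes an E2F factor, lies on chromosome V from 16958590 to 16965675 on the minus strand of ce11. Its peak, at 16965671 to 16966010, overlapped the first bases of the gene and had an intergenic summit at -166 bp. The pooled signal value was 62.7 (rank 115), with 39.1 in replicate 1 (rank 189) and 17.3 in replicate 2 (rank 146). These were the highest values among the 40 genes in the pooled list and in replicate 2, and 99.59% of protein-coding genes lay below efl-1 in the pooled list. The summits of the replicates were at -174 and -196 bp. The sequence around the pooled summit of efl-1 is shown because this was the strongest entry of the set. It is chrV:16965721-16965961 of ce11, in the direction of the gene (minus strand). Capitals here and in the other sequences mark the E2F type words TTTCCCGC, TTTGGCGC, TTTCGCGC and TTTGCCGC on either strand. They also mark CTGCGTC, the shorter word GTCTC, the word TGCGC, the repeat GAGAGAG and the palindrome GCGCGC.
efl-1: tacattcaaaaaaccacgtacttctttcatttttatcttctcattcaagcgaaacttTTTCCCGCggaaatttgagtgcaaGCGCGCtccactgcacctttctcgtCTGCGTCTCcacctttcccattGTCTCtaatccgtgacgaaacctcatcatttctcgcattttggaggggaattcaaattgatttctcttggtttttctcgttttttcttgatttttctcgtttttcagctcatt
The words lay on both sides of the summit, and TTTCCCGC was centred 60 bp from it. CTGCGTC overlapped 1 of the GTCTC matches.

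The partners of efl-1 were lower. lin-35, the Rb family pocket protein, had 24.0 in the pooled list (rank 929), 17.1 in replicate 1 (rank 1132) and 6.36 in replicate 2 (rank 1722). Its pooled summit was at -211 bp, and those of the replicates at -162 and -213 bp. The lowest signal value of a reproducible peak was 26.9, so lin-35 lay below the range of that list. dpl-1, the DP partner, had 9.35 in the pooled list and 7.30 in replicate 1, with summits at -261 and -260 bp, and no entry in replicate 2. efl-2, a second E2F factor, had an entry only in replicate 1, of 5.17 (rank 19611 of 30000), which was below the median of that list.

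Among the replication genes, pcn-1 stood above the rest. pcn-1 (WBGene00003955) encodes PCNA, the sliding clamp of DNA polymerase, and lies on chromosome IV from 4047937 to 4049448 on the minus strand. Its peak, at 4049566 to 4049905, had an intergenic summit at -288 bp. The pooled signal value was 45.8 (rank 263), with 39.4 in replicate 1 (rank 184) and 6.19 in replicate 2 (rank 1883). Replicate 2 alone thus placed pcn-1 outside its 748 strongest entries, whose lowest value was 8.48, while replicate 1 placed it well inside, with a lowest value there of 21.2. The replicates' summits were at -275 and -249 bp. The sequence of the pcn-1 peak, chrIV:4049616-4049856 (minus strand), is printed beside that of mcm-7, chrV:4346834-4347034 (plus strand), a helicase gene with a weaker entry in every candidate list. Both carry the E2F type word TTTCGCGC, centred 104 bp from the pooled summit in pcn-1 and 88 bp in mcm-7.
pcn-1: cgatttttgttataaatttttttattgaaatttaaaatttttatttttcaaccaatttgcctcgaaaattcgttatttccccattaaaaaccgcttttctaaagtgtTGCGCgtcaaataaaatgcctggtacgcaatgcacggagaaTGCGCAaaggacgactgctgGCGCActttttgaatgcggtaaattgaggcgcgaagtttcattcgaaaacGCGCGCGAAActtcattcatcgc
mcm-7: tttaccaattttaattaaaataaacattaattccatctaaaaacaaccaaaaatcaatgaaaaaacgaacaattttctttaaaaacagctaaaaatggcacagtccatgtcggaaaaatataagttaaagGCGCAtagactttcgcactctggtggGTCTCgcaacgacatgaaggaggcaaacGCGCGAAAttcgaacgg
In both it lies downstream of the pooled summit and is read from the opposite strand. In pcn-1 it overlaps a match to GCGCGC.

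The MCM genes encode the subunits of the replicative helicase, and 5 of the 6 had a pooled entry. mcm-2 had a pooled value of 13.4 (rank 3312), mcm-7 of 11.5 (rank 4826) and mcm-5 of 9.96 (rank 7173). mcm-3 had 8.49 and mcm-4 had 8.27, and neither had an entry in replicate 2. All 5 values were above the median of the pooled list, and all were far below that of pcn-1. In replicate 1 they ran from 4.03 for mcm-5 to 12.8 for mcm-2. In replicate 2 the values were 2.64 for mcm-2, 2.37 for mcm-5 and 3.04 for mcm-7, all below the median of that list. For mcm-2 the replicates' summits were apart, at -159 bp in replicate 1 and -370 bp in replicate 2. mcm-6 had no entry in any list.

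The licensing factors that load the helicase differed from each other. cdc-6 had a pooled value of 18.1 (rank 1607), with 10.8 in replicate 1 and 5.59 in replicate 2, each above the median of its list. Its summits were at -237, -302 and -223 bp in that order. cdt-1 had 8.16 in the pooled list and 5.995 in replicate 1, at 41 and 50 bp downstream of the start, and no entry in replicate 2.

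At the kinetochore, knl-3 (WBGene00020392), a subunit of the MIS-12 complex, was the highest. The gene lies on chromosome V from 1869213 to 1870558 on the plus strand, and its peak at 1868640 to 1868979. The pooled signal value was 49.8 (rank 208), with 40.2 in replicate 1 (rank 177) and 9.42 in replicate 2 (rank 597). In both replicates this was among the 748 strongest entries, and the summits were at -403 bp in the pooled list and replicate 1 and at -393 bp in replicate 2. The value in replicate 1 was the highest of the 40 genes, above those of pcn-1 and efl-1. The summit lay within the annotated 5′ UTR exon of a long transcript of T10B5.3 (WBGene00020389), which runs on the minus strand from 1864178 to 1869782. A shorter transcript of T10B5.3 starts 642 bp from the start of knl-3, facing away from it, and the summit was 239 bp upstream of that start. The peak is therefore nearer to an annotated start of T10B5.3 than to that of knl-3.

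Of the remaining kinetochore genes, ndc-80, mis-12 and knl-1 had the highest pooled values. ndc-80, a microtubule-binding subunit, had 15.3 in the pooled list (rank 2353) and 12.5 in replicate 1, and no entry in replicate 2. mis-12 had 11.99, with 8.22 in replicate 1 and 4.02 in replicate 2, each above the median of its list. knl-1, the scaffold that recruits checkpoint proteins, had 8.14, with 5.03 in replicate 1 and 5.51 in replicate 2. Its replicates disagreed on the place, at 62 bp downstream of the start in replicate 1 and at -242 bp in replicate 2, and the pooled summit was at -227 bp. The ndc-80 sequence, chrIV:10085814-10086014 (plus strand), is shown because its E2F type word was the nearest to a summit of any of the 40 genes.
ndc-80: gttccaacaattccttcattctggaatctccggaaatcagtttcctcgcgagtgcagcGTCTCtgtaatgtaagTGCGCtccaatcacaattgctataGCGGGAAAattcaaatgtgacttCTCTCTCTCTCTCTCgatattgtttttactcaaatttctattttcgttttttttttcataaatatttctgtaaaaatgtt
TTTCCCGC, read from the opposite strand, was centred 2 bp from the pooled summit. A run of overlapping GAGAGAG matches followed it downstream, again on the opposite strand.

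Pooled values were lower at the last kinetochore genes, or there was none. hcp-4, which encodes the CENP-C protein, had 6.21 in the pooled list and 4.28 in replicate 1, at 44 and 47 bp downstream of the start, both below the list medians. hcp-3, the centromeric histone, had an entry only in replicate 2, of 2.02 (rank 22243 of 22611). The checkpoint kinase gene bub-1 had 5.08 in the pooled list (rank 28863 of 30000) and 2.82 in replicate 2, with summits at -314 and -159 bp. Each of these entries was near the lower end of its list or below its median. knl-2, needed to place HCP-3 on chromatin, had none.

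Of the 13 cyclins, CDKs and CDK regulators, cdk-4 and cdk-1 had a pooled entry. cdk-4, the kinase of cyclin D, had 12.95 (rank 3592) and 10.95 in replicate 1, both with the summit at -464 bp, and no entry in replicate 2. cdk-1, the mitotic kinase, had 7.84 in the pooled list and 4.79 in replicate 2 (rank 3867), and none in replicate 1. Its summits were on either side of the start, at -71 bp in the pooled list and 47 bp downstream in replicate 2. Neither gene had an entry in both replicates. The B-type cyclin gene cyb-1 had 6.48 in replicate 2 (rank 1613), at -450 bp, and none elsewhere. That summit was nearer to orc-5, a gene of the origin recognition complex on the other strand, at -178 bp, and orc-5 had a pooled entry of its own (12.4). The other entries were cdk-2 with 4.18 in replicate 1, cye-1, the cyclin E gene, with 2.22 in replicate 2 and the CDK inhibitor cki-2 with 2.58 in replicate 2. Each of these 3 was below the median of its list, and that of cye-1 also lay in the window of pqn-21, at -396 bp against -252 bp. The cyclin D gene cyd-1 and the cyclin A gene cya-1 had no entry.

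The mitotic kinases and the centrosome had 2 pooled entries. air-2, the Aurora B kinase, had 7.31 in the pooled list and 3.26 in replicate 2, at -57 and -44 bp, and none in replicate 1. spd-2, a protein of the pericentriolar material, had 6.91 in the pooled list and 4.82 in replicate 1, at -131 and -96 bp, and none in replicate 2. bir-1, the Survivin partner of Aurora B, had 4.92 in replicate 2 (rank 3554), at -157 bp, and no pooled entry. The Aurora A gene air-1, the Polo kinase gene plk-1 and zyg-1, the kinase of centriole duplication, had none. No gene of this group had an entry in both replicates.

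The pooled summits of the 21 genes were mostly a short way upstream of the start. There were 19 upstream of it and 15 from 100 to 400 bp upstream, with a median of -227 bp. Over all protein-coding genes with a pooled entry, 4437 of 5096 were upstream and 2902 were from 100 to 400 bp upstream, with a median of -189 bp. Only cdt-1 and hcp-4 had the pooled summit downstream of the start.

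**Figure D3:**
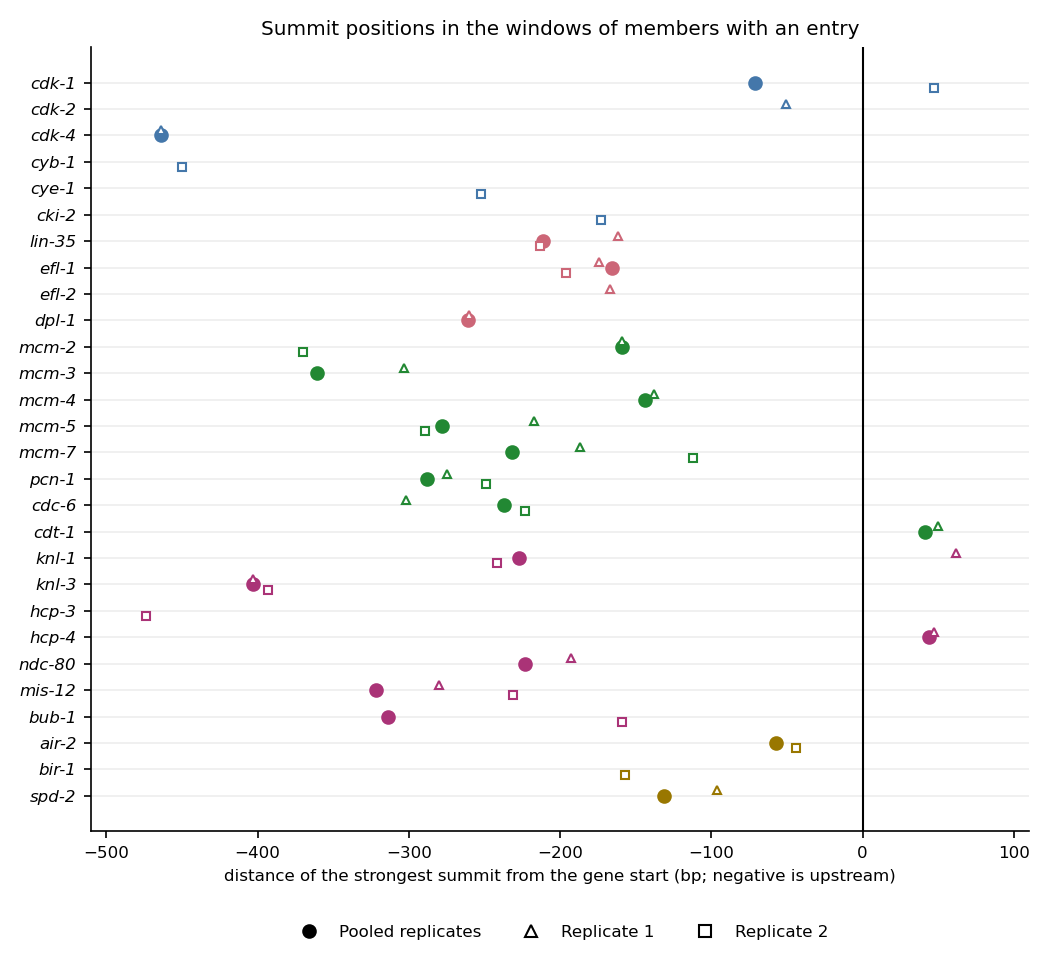
Distance of the strongest summit from the gene start (bp, negative upstream) for the 28 genes with an entry in any candidate list; filled circles are the pooled list, open triangles replicate 1 and open squares replicate 2, coloured by role. The 3 marks of efl-1, pcn-1 and knl-3 lie close together, while those of mcm-2 and knl-1 are apart.

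Counted per gene, pooled summits of the 40 genes were densest from 300 to 200 bp upstream, with 20 per 100 genes (8 summits), where all protein-coding genes had 5.28. All protein-coding genes had their maximum, 5.91 per 100 genes, in the next bin towards the start, from 200 to 100 bp upstream, where the 40 genes had 10 (4 summits). With so few summits per bin, the place of the maximum rests on a handful of genes.

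**Figure D4:**
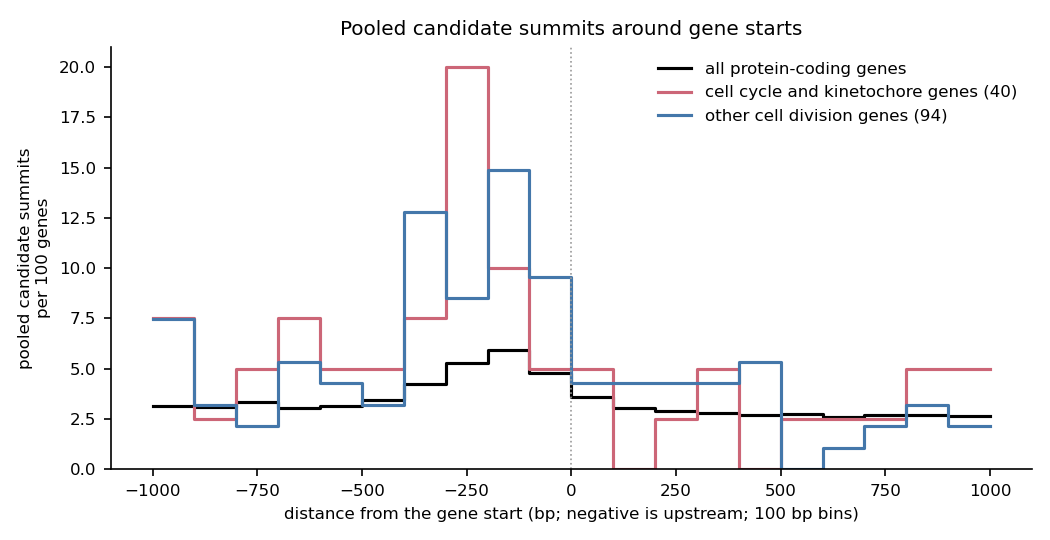
Pooled candidate summits per 100 genes (vertical axis) in 100 bp bins of distance from the gene start (horizontal axis, negative upstream) for the 40 genes, 94 other cell division genes and all protein-coding genes. The 40 genes reach 20 per 100 genes from 300 to 200 bp upstream, and all protein-coding genes reach 5.91 from 200 to 100 bp upstream.

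Many of the 40 genes share their upstream region with a neighbour. A gene on the other strand started within 1000 bp upstream for 16 of them (40%), against 17.5% of all protein-coding genes. Over the genome, genes so placed had a reproducible peak at 6.97% and a pooled entry at 38.9%. Of the 16, 0 had a reproducible peak and 10 had a pooled entry. The end of a gene on the same strand lay within 500 bp upstream for mcm-4, mcm-5 and knl-1, and all 3 had a pooled entry, against 28.3% of genes so placed. The remaining 21 had neither neighbour by annotated gene starts, and they held all 3 reproducible peaks and 8 pooled entries. Genes of that kind had a reproducible peak at 1.35% and a pooled entry at 21% over the genome. The place of knl-3 among the 21 depends on that rule. T10B5.3, on the other strand, overlaps the start of knl-3, and its shorter transcript starts 642 bp upstream of it. With transcript starts counted, knl-3 would have a neighbour within 1000 bp.

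A summit between 2 starts cannot be given to either gene from its position alone. The windows of 8 of the 21 genes with a pooled entry shared the summit with another protein-coding gene (38.1%, against 22.6% of all genes with a pooled entry). These were cdk-1 with iff-1, cdk-4 with F18H3.1, lin-35 with vps-51, cdc-6 with acin-1, ndc-80 with col-2, bub-1 with lin-61, air-2 with B0207.6 and spd-2 with F32H2.10. The neighbour's start was the nearer for cdk-4, lin-35, cdc-6 and spd-2. For lin-35 the summit was almost midway, at -211 bp, and at -207 bp from vps-51. None of the 3 reproducible peaks lay in a second protein-coding window measured from annotated gene starts, though that of knl-3 did when the shorter transcript of T10B5.3 was counted.

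**Figure D5:**
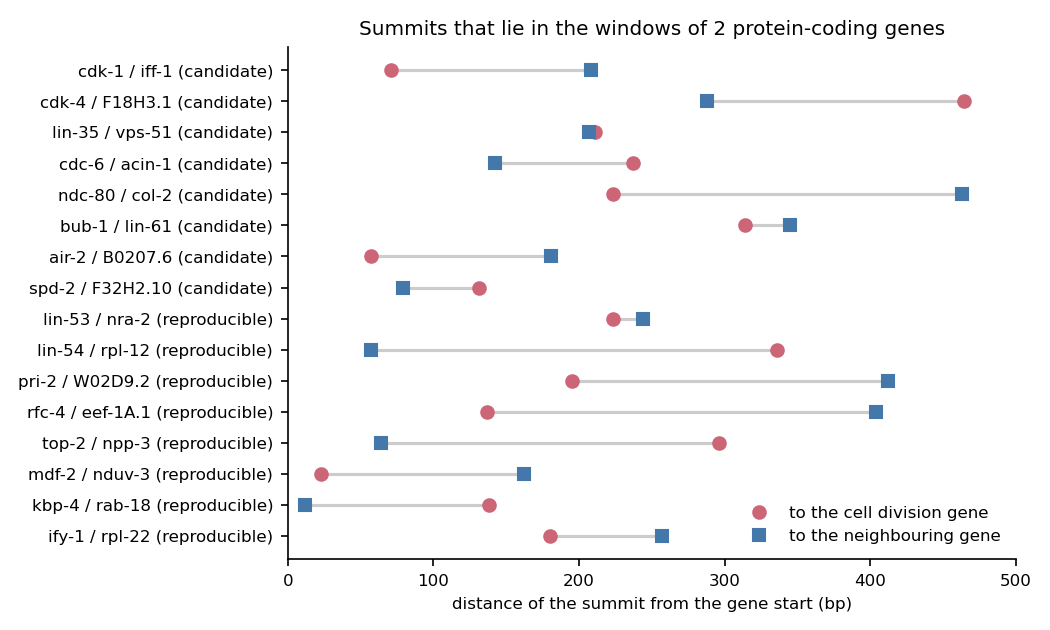
Distance of a summit (bp, horizontal axis) from the start of the cell division gene (circles) and of the neighbouring protein-coding gene (squares) for summits in both windows; the upper 8 pairs are pooled candidate entries of the 40 genes and the lower 8 are reproducible peaks of other cell division genes. The neighbour is the nearer in 4 of the upper pairs and in 3 of the lower pairs.

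Outside the windows, reproducible peaks were seldom close. The median distance from the start to the nearest reproducible summit was 33.8 kb, against 53.8 kb for all protein-coding genes, and the longest was 702 kb, at mcm-7. cye-1 had the nearest of those without a peak in the window, 976 bp downstream of its start, inside the gene but outside its annotated exons, with a signal value of 46.4. That summit lay 28 bp upstream of the start of a tRNA gene, WBGene00022955, at I 6781803 to 6781874 on the plus strand, within cye-1. hcp-3 had one at -2945 bp (51.5), in the window of hlh-11. cdk-4 had a stronger one 4337 bp downstream of its start (103.8), intergenic on X.

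E2F type words were common in the windows of these genes. At least 1 of the 4 words, searched on both strands, was in 17 of the 40 windows (42.5%), against 9.12% of the windows of all protein-coding genes. By role they were in 7 of 9 replication genes, 3 of 8 kinetochore genes, 4 of 13 cyclins, CDKs and regulators, 2 of 6 genes of mitotic kinases and the centrosome, and 1 of 4 genes of the E2F pathway. mcm-2 and cdc-6 were the replication genes without one. The mean GC content of the windows was 35.8% ± 3.47 (SD over 40 windows), against 35% ± 4.31 for all genes. A match is a run of letters, not a shown site, and says nothing of where an E2F factor binds.

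Windows with and without an E2F type word both held entries. A pooled entry was found at 11 of the 17 genes with a word and at 10 of the 23 without. Over all protein-coding genes a pooled entry was found at 29.7% of those with a word, against 25.5% of all, and a reproducible peak at 4.23% against 2.39%. All 3 genes with a reproducible peak had a word in the window, against 77 of the 477 protein-coding genes with a reproducible peak. Within those 11 windows the nearest word was centred a median of 60 bp from the pooled summit, from 2 bp at ndc-80 to 220 bp at mcm-3, and 5 were within 50 bp. Those 5 were ndc-80, knl-3 (6 bp), cdt-1 (10 bp), air-2 (12 bp) and mcm-4 (16 bp). The distance was not measured over all protein-coding genes, so it cannot be called short or long. In the 101 bp around the summits of all 748 reproducible peaks, E2F type words were in 19 (2.54%), a share that cannot be set against those of the whole windows because the stretch is shorter.

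Of the other words, those that mark the peaks of this series were counted in the same windows. They had been picked from earlier results on these peaks, so their share at peaks is a description only. GCGCGC was in 32.5% of the 40 windows, against 5.95% of all windows, and in 11.4% of the shorter 101 bp summits of reproducible peaks. TGCGC was in 57.5% against 31%, and CTGCGTC in 20% against 7.23%. A word in the window did not mean an entry. Of the 8 genes with CTGCGTC, efl-1 and cdt-1 had a pooled entry, where 25.5% of all protein-coding genes had one. cdk-2 had an entry in replicate 1 only and hcp-3 in replicate 2 only. The others, cki-1, cdc-25.1, mcm-6 and zyg-1, had no entry in any list, like 63.4% of all protein-coding genes. Whether words and entries go together was not tested. GTCTC, at 65% against 54.1%, and GAGAGAG, at 12.5% against 10.8%, were nearer to the shares of all windows. So was the CHR type of word known from DREAM target promoters (TTTGAA or TTCGAA, not capitalised above), at 95% against 89.6%. These words overlap each other and the E2F type words in letters, so the counts are not separate. Within 101 bp of the summit, efl-1 had CTGCGTC, the shorter word GTCTC and the palindrome GCGCGC, pcn-1 had TGCGC, and knl-3 had TGCGC and an E2F type word. The homeodomain core TAAT was in 39 of the 40 windows (97.5%) and in 99.6% of all windows. It was within the 101 bp summits of all 3 genes, and of 33.6% of all reproducible peaks. GC content in the 101 bp at the summit was 50.5% for efl-1, 47.5% for pcn-1 and 56.4% for knl-3, against 48.5% ± 7.89 (SD, n = 748 peaks).

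Another 94 cell division genes, listed by role, were scored in the same way. A reproducible peak was found at 12 of them (12.8%) and a pooled entry at 50 (53.2%), both above the shares of all protein-coding genes given above. Those shares are not matched for arrangement. A gene on the other strand started within 1000 bp upstream for 46 of the 94, against 17.5% of all protein-coding genes. These 46 held 9 of the 12 reproducible peaks and 32 of the 50 pooled entries. Genes so placed had a reproducible peak at 6.97% and a pooled entry at 38.9% over the genome. The DREAM complex, called DRM in the worm, represses cell cycle genes and contains EFL-1, DPL-1 and LIN-35. Of its 5 genes in this second list, 3 had a reproducible peak. With efl-1, dpl-1 and lin-35 the count was 4 of 8, and 7 of the 8 had a pooled entry. lin-54, its DNA-binding subunit, had a pooled value of 74.6, with 54.0 in replicate 1 and 22.8 in replicate 2. lin-53, a histone-binding subunit, had 71.9, with 51.7 and 22.4. Its summit, at -223 bp, also lay in the window of nra-2, at -244 bp. lin-9 had 49.3 with 46.6 in replicate 1 (rank 118), but 2.50 in replicate 2 (rank 16565). lin-52 had a pooled entry of 5.75 and lin-37 had no entry. The summits of lin-9 and lin-54 are shown as a DREAM gene with a peak in its own window alone and a DREAM gene that shares its peak. lin-9 at chrIII:8904234-8904334 (minus strand) shares its summit with no second window. lin-54 at chrIV:13240658-13240758 (plus strand) shares it with rpl-12, whose start was the nearer, at -57 bp against -336 bp.
lin-9: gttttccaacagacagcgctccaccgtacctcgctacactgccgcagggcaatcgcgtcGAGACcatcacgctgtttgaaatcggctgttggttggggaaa
lin-54: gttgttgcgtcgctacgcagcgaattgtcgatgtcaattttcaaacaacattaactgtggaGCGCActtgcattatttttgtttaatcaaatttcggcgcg
Each of these 101 bp stretches holds 1 of the marked words and no E2F type word, though the whole windows of lin-9, lin-53 and lin-54 each hold at least 1. Of the 94 genes, 33 had an E2F type word in the window (35.1%, against 9.12% of all protein-coding genes). A reproducible peak was found at 8 of those 33 (24.2%) and at 4 of the 61 without (6.56%). Over all protein-coding genes the shares were 4.23% with a word and 2.2% without. Whether word and peak go together was not tested.

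Of the other replication genes, 3 of 25 had a reproducible peak. The share over all protein-coding genes was 2.39%. They were rfc-4, a subunit of the clamp loader (49.7), top-2, a type II topoisomerase (53.3), and pri-2, a subunit of primase (29.3), which had no entry in replicate 2. Kinetochore, checkpoint and cohesion genes had one at 3 of 24, which were kbp-4 (41.6), the securin gene ify-1 (38.0) and the checkpoint gene mdf-2, the lowest in pooled signal of the 12. CDK regulation and the anaphase-promoting complex had 2 of 20, cdk-7 (33.6) and the inhibitory kinase gene wee-1.3 (27.2). The spindle, centrosome and cytokinesis had 1 of 20, sas-5 of centriole assembly (61.9). Of these 12 peaks, 8 (66.7%) also lay in the window of another protein-coding gene, against 46.1% of all protein-coding genes with a reproducible peak. The neighbours included the ribosomal protein genes rpl-12 at lin-54 and rpl-22 at ify-1, and the elongation factor gene eef-1A.1 at rfc-4. For lin-54, top-2 and kbp-4 the start of this protein-coding neighbour was the nearer. Non-coding genes were nearer at 2 more peaks. The rfc-4 summit was at -31 bp from the miRNA gene cel-mir-5549, against -137 bp from rfc-4. That of wee-1.3 was at -85 bp from the piRNA gene 21ur-12807, against -390 bp from wee-1.3. Pooled entries in this list were at 13 of 25 replication genes (52%) and 17 of 24 kinetochore, checkpoint and cohesion genes (70.8%). All protein-coding genes had one at 25.5%. CDK regulation and the anaphase-promoting complex had 8 of 20 (40%), as did the spindle, centrosome and cytokinesis. The lead that replication genes had in the pooled list among the 40 was thus not seen here.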

How the data were processed

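ChIP-seq for eGFP-tagged CEH-82 was analysed in 2 samples of 1 group. The deposited lists on ce11 were used: 1 reproducible list from both replicates, 1 candidate list of the pooled replicates and 1 for each replicate. Lists on ce10 were not used. For every peak the authors deposited a signal value. Its scale, the aligner, the caller and the threshold are not given in the sources used here; all 4 lists were scored as deposited. The control alignment and the reads were not used here, so depth is unknown and no interval is given. The labels call the samples biological replicates.

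A summit was the start of a peak plus its summit offset. Genes and exons were those of Ensembl release 115 (WBcel235, the same assembly as ce11), and sequences were read from the RefSeq genome of that assembly. A gene's value was its highest entry in the window. Words were counted in 601 bp windows and in 101 bp around summits. Coordinates are 1-based. Python 3.11.15, NumPy 2.4.6 and matplotlib 3.10.9 were used, and the scoring was tested on simulated data. Members, lists and words were chosen with earlier results of these data known. Values are given for genes with a reproducible peak and then by pooled signal, up to 20 genes; bub-1 and genes with an entry in 1 replicate only were added after their values were seen. Other cell division genes are named where they have a reproducible peak, beside 2 further DREAM genes that complete that list. The name smc-1 was not matched and is left out of the 94. Members are not replicates, and no test was made. The alternatives are given in the closing section.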

Additional observations from a re-analysis of the deposited data

How the results depend on the processing

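The counts were made again with narrower and wider windows, whole intervals, transcript starts, the nearest start within 2 kb, peaks at or above the list median, the strongest pooled entries and each replicate alone. With a window from 250 bp upstream to 50 bp downstream, 1 of the 40 genes had a reproducible peak (efl-1; 1.57% of all genes), leaving 0 replication and 0 kinetochore genes, since the summits of pcn-1 and knl-3 lie farther upstream, and 13 genes had a pooled entry (15.1% of all genes). From 1000 bp upstream to 200 bp downstream, 32 had one (37.7%). With the nearest start, 1 gene of the cyclins, CDKs and regulators had a reproducible peak, cye-1. At or above the median of the list, 7 of the 94 other cell division genes had one. With the strongest 748 entries of 1 replicate, 2 to 3 of the 40 genes had a peak (pcn-1 is lost in replicate 2, so replication ranged from 0 to 1), with 1 E2F pathway gene, 1 kinetochore gene and 0 of the other roles in both. Pooled entries became 18 to 20 and the other cell division genes 10 in both. Pooled entries by role, an alternative added after the data were seen, moved more. With the narrow window they were 1 for cyclins, CDKs and regulators, 5 for replication and 3 for the kinetochore; with the wide window 8 for cyclins, CDKs and regulators and 5 for mitotic kinases and the centrosome. With any part of an entry the cyclins, CDKs and regulators had 6, and at or above the list median mitotic kinases and the centrosome had 1. Over the lists of each replicate alone the ranges were 2 to 4 for cyclins, CDKs and regulators, 2 to 4 for the E2F pathway, 5 to 8 for replication, 5 in both for the kinetochore and 1 to 2 for mitotic kinases and the centrosome. Every other count made stayed within 1.5 times. Signal values differ in scale between lists, so they moved for every named gene. No paired analysis was possible because there was 1 group of samples. With 2 samples, unknown depth and 3 reproducible peaks, each share of a role group moves by a large step with 1 gene.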
